A study of Mus musculus with 18 samples.

Results

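The 10 genes described here are Asb2, Cebpa, Ttc39c, Apol9b, Gjb2, Sccpdh, Plekhg3, Ier5l, Baiap3 and Igsf3, of 26665 genes listed. They were chosen by their FPKM values in these same libraries, because their level in mouse T cells without CD28 was shifted from wild type in more than 1 sorted population. All 10 passed the filter on low values, which kept the 12265 genes whose FPKM (mapped fragments scaled to transcript length and to library total) reached 1 in 3 or more of the 18 libraries. RNA was sequenced from regulatory T cells (Treg) and conventional T cells (Tconv) of the spleen of C57BL/6 mice, with 3 libraries in each of 6 groups. The CD28KO groups came from mice that lacked CD28 and carried the Foxp3EGFP reporter (CD28-/-Foxp3EGFP), and the WT groups came from Foxp3EGFP mice with intact Cd28, so both genotypes carried the reporter. Within each genotype, tTreg were the Nrp1+ Treg, pTreg were the Nrp1-negative Treg, and Tconv were the third population. The labels give neither the animals' age nor whether animals were pooled or replicates came from separate animals, so the errors and p-values measure only the spread between these libraries.

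CD28 is the costimulatory receptor of T cells. It binds CD80 and CD86 on antigen-presenting cells and adds its signal to that of the antigen receptor, which raises the activity of NF-kB, AP-1 and NFAT transcription factors, and Treg development and maintenance depend on it. Among the genes described, Asb2 encodes the substrate-recognition subunit of a Cullin 5 ubiquitin ligase that marks filamins for degradation, and Cebpa encodes a basic leucine zipper transcription factor known for granulocyte, monocyte and fat cell differentiation.

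The sorted populations carried the markers of their gates. Foxp3 was 87.9 to 105 FPKM in CD28KO tTreg and 96.9 to 137 FPKM in WT tTreg, and Nrp1 stayed under 1 FPKM in all 6 pTreg libraries. A library of each of 2 CD28KO groups stood apart. CD28KO Tconv replicate 3 had 21.1 FPKM of Foxp3, whereas no WT Tconv library had more than 0.285 FPKM. Of the 10 genes, 9 were highest in that replicate among the 3 CD28KO Tconv libraries, all but Baiap3, and the Tconv level without it is given for each gene. That level rests on 2 libraries. Depth is unknown, so where they lie under about 0.3 FPKM it can be given no counting error. They did so for Cebpa, Ttc39c, Apol9b, Gjb2, Sccpdh, Plekhg3 and Ier5l. CD28KO tTreg replicate 3 had 8.14 FPKM of Pdlim4, a transcript at 35.4 to 67.4 FPKM in the 6 Tconv libraries, whereas CD28KO tTreg replicates 1 and 2 had 0.126 and 0.0332 FPKM of it and no WT tTreg library had more than 0.0990 FPKM. The FPKM values of WT Tconv replicate 1 added up to more than in any other library, 994139, and WT pTreg replicate 1 had the fewest genes at 1 FPKM or more, 10703. Cd28 itself was not lower in the knockout, with 71.2 to 80.6 FPKM in CD28KO tTreg and 57.5 to 62.9 FPKM in WT tTreg. The labels do not say which part of Cd28 the mutation removes, so this gene-level value does not check the genotype.

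Without CD28, 9 of the 10 genes had lower mean levels in all 3 populations, and Igsf3 had higher ones. Since these contrasts chose the genes, their values are given as a description with no test. In tTreg, the 3 CD28KO libraries did not overlap the 3 WT libraries for 10 of 10 genes, where 17.8% of all tested genes did not overlap. In pTreg the count was again 10 of 10, against 6.43% of tested genes. In Tconv it was 8 of 10, against 18.7%, with Gjb2 and Igsf3 overlapping. By the limma adjusted p under 0.05, 9 of 10 passed in tTreg (0.204% of tested genes), 9 of 10 in pTreg (0.204%) and 4 of 10 in Tconv (0.791%). Over all tested genes, 17 passed in more than 1 population, and 9 of the 10 genes are among them, all but Ier5l. The choice of the genes set these counts, and nothing is read from them. Nearest the threshold, Cebpa in pTreg lay just inside, with a difference of -1.03 ± 0.20 (SE) on the log2(FPKM + 1) scale, followed by Asb2 and Gjb2 in pTreg and Ttc39c in tTreg. Just outside lay Ier5l in pTreg, with -1.53 ± 0.30, and Baiap3 in tTreg, with -0.96 ± 0.20.

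**Figure D1:**
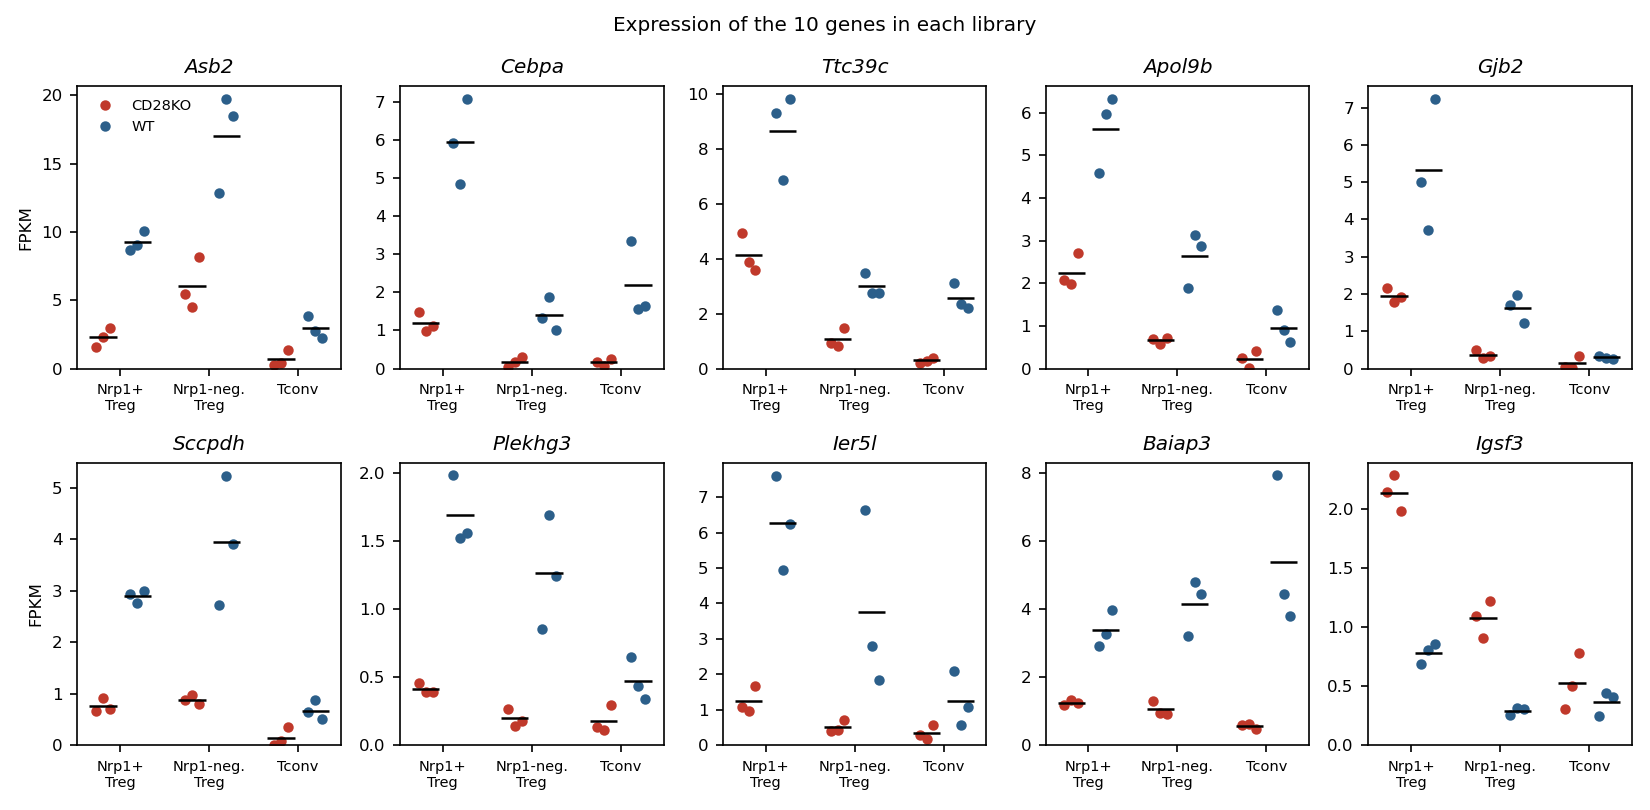
FPKM of each gene in each of the 18 libraries (points) by population, with CD28KO left of WT and the group mean as a bar, on linear axes from 0 that differ between genes. The CD28KO points lie below the WT points in tTreg and pTreg for 9 genes and above them for Igsf3.

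The median difference of all tested genes, CD28KO minus WT on the log2(FPKM + 1) scale, was -0.05 in tTreg, 0.19 in pTreg and -0.16 in Tconv. The median over the 10 genes, which their choice set, was -1.04 in tTreg, -1.07 in pTreg and -0.69 in Tconv. In bulk libraries like these, fewer cells that express a gene and less of its RNA per cell cannot be told apart.

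**Figure D2:**
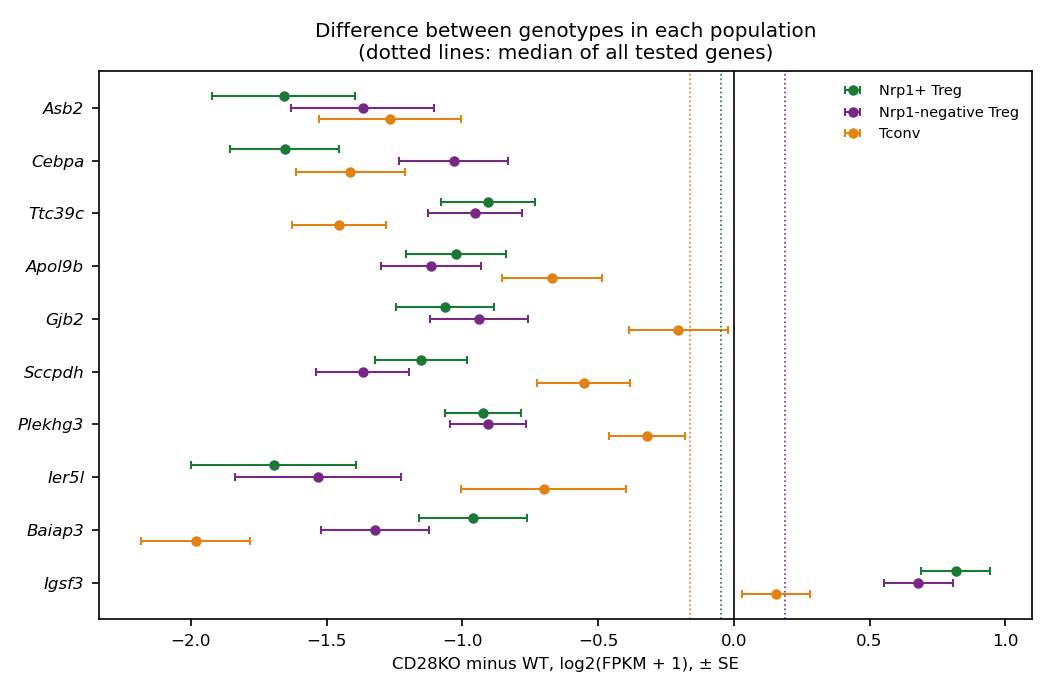
Difference CD28KO minus WT of log2(FPKM + 1) with its SE, for each gene (rows) and population (colours); dotted lines mark the median of all tested genes. Baiap3 and Ttc39c lie farthest left in Tconv, while Gjb2 and Igsf3 lie near 0 there.

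Asb2 is on chr12:103321142-103356001 (GRCm38, minus strand). Its FPKM was 1.61, 2.31 and 2.99 in CD28KO tTreg, against 8.71, 9.06 and 10.1 in WT tTreg. In CD28KO pTreg it was 5.49, 4.47 and 8.19, against 12.9, 19.7 and 18.5 in WT pTreg. In CD28KO Tconv it was 0.287, 0.388 and 1.38, against 3.87, 2.73 and 2.27 in WT Tconv. No CD28KO library reached a WT library of its own population. The CD28KO mean was 24.8% of the WT mean in tTreg, 35.5% in pTreg and 23.2% in Tconv. The log2 difference was -1.66 ± 0.26 in tTreg, -1.37 ± 0.26 in pTreg and -1.27 ± 0.26 in Tconv. Without CD28KO Tconv replicate 3, the Tconv mean of the other libraries was 11.4% of the WT mean.

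Cebpa (chr7:35119293-35121928, GRCm38, plus strand) was low in all groups and was under 0.3 FPKM in every pTreg and Tconv library without CD28. Its FPKM was 1.49, 0.984 and 1.13 in CD28KO tTreg, against 5.94, 4.85 and 7.08 in WT tTreg. In CD28KO pTreg it was 0.0370, 0.173 and 0.294, against 1.32, 1.88 and 1.02 in WT pTreg. In CD28KO Tconv it was 0.173, 0.0680 and 0.255, against 3.36, 1.57 and 1.65 in WT Tconv. The genotypes did not overlap in any population, and every CD28KO library outside tTreg lay below every WT library. The CD28KO mean was 20.2% of the WT mean in tTreg, 12% in pTreg and 7.54% in Tconv, or 5.50% in Tconv without CD28KO replicate 3. The log2 differences were -1.65 ± 0.20 in tTreg, -1.03 ± 0.20 in pTreg and -1.41 ± 0.20 in Tconv.

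Because Cebpa is a known gene of myeloid cells, 12 myeloid markers were read beside it, of which 11 were listed. Their summed level was 18.5 to 54.3 FPKM in CD28KO tTreg and 28.7 to 45.0 FPKM in WT tTreg, and 26.4 to 76.6 FPKM in CD28KO pTreg and 29.0 to 90.8 FPKM in WT pTreg. The genotypes thus overlapped in both Treg subsets. In Tconv the sum was 17.1 to 19.9 FPKM in CD28KO and 30.0 to 33.8 FPKM in WT, so it was lower along with Cebpa. Cd68 was its largest part, with means of 8.57 FPKM in CD28KO Tconv and 12.1 FPKM in WT Tconv. Means of Itgam (1.16 against 0.941 FPKM) and Cd14 (0.0700 against 0.0108 FPKM) were higher in CD28KO Tconv, and those of the other listed markers were lower. The part of these markers in the Tconv result was not tested. Of the granulocyte precursor markers, Mpo was at most 0.691 FPKM in any library and Elane, listed at 0 in all 3 CD28KO Tconv libraries, at most 0.900 FPKM. Summed B cell markers were 5.54 to 6.10 FPKM in CD28KO tTreg and 10.6 to 12.3 FPKM in WT tTreg, and their part in the tTreg results was not tested either.

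The windows around the annotated start sites of Asb2 and Cebpa are shown because these genes were lower in all 3 populations. They are RefSeq sequences of GRCm38.p6, from 250 bases before the start to 50 bases from it on, 5′ to 3′ on the gene's strand, with motif matches in capitals.
Asb2, chr12:103355952-103356251, minus strand: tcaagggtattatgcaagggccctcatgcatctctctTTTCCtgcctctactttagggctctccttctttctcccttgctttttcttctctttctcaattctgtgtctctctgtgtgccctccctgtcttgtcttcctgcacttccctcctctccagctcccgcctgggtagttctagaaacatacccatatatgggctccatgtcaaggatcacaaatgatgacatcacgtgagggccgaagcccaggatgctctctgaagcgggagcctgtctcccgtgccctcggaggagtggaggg
Cebpa, chr7:35119043-35119342, plus strand: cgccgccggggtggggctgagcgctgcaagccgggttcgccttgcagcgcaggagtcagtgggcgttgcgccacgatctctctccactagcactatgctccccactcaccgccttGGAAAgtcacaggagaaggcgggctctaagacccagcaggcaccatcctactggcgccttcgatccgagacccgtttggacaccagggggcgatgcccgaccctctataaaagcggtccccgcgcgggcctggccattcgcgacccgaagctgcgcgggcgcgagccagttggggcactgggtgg
Of 6 motifs searched on both strands, only the NFAT core GGAAA was found in the windows shown, 1 time in each, and it occurs in 61.3% of the 32851 RefSeq windows of this length. The other motifs were AP-1 (TGANTCA, in 7.81% of windows), CRE (TGACGTCA, 1.79%), C/EBP (TTGCNNNAA, 9.56%), ISRE (TTTC, then 2 of any base, then TTTC, 3.44%), whose letters can overlap GGAAA on the other strand, and NF-kB by its name (8.46%). A further RefSeq window of Asb2, chr12:103338341-103338640, held 0 matches to the 6 motifs. A match is a description of the letters and not a binding site.

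Ttc39c and Baiap3 had their largest log2 differences between genotypes in Tconv. Ttc39c encodes a tetratricopeptide repeat protein. Its FPKM was 4.92, 3.88 and 3.60 in CD28KO tTreg, against 9.28, 6.85 and 9.80 in WT tTreg. In CD28KO pTreg it was 0.936, 0.822 and 1.46, against 3.48, 2.75 and 2.76 in WT pTreg. In CD28KO Tconv it was 0.210, 0.269 and 0.401, against 3.13, 2.33 and 2.22 in WT Tconv. The libraries of each genotype kept apart in every population, and the CD28KO mean was 47.8% of the WT mean in tTreg, 35.8% in pTreg and 11.5% in Tconv, or 9.36% in Tconv without CD28KO replicate 3. Its log2 differences were -0.90 ± 0.17 in tTreg, -0.95 ± 0.17 in pTreg and -1.45 ± 0.17 in Tconv.

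Baiap3 (chr17:25242659-25256364, GRCm38, minus strand) encodes a C2-domain protein of the Munc13 family, which acts in vesicle exocytosis. Its FPKM was 1.18, 1.33 and 1.22 in CD28KO tTreg, against 2.93, 3.27 and 3.97 in WT tTreg. In CD28KO pTreg it was 1.30, 0.942 and 0.901, against 3.20, 4.79 and 4.44 in WT pTreg. In CD28KO Tconv it was 0.589, 0.626 and 0.471, against 7.94, 4.46 and 3.81 in WT Tconv. WT Tconv thus had the highest mean of the 6 groups, CD28KO Tconv had the lowest, and all 9 CD28KO libraries lay below all 9 WT libraries. The log2 differences were -0.96 ± 0.20 in tTreg, -1.32 ± 0.20 in pTreg and -1.98 ± 0.20 in Tconv, where the CD28KO mean was 10.4% of the WT mean, or 11.2% without CD28KO replicate 3. Without WT Tconv replicate 1, the highest of its group, the Tconv difference was -1.71. Baiap3 shares 140 of its 5112 exonic bases with Tsr3 on the opposite strand, and the strand setting of the counting was not given in the sources used here.

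Apol9b encodes an apolipoprotein L of an interferon-inducible gene family. It lies on chr15:77729039-77736382 (GRCm38, plus strand) near its close copy Apol9a on chr15:77403789-77411135 (minus strand). Apol9b averaged 2.25 ± 0.393 FPKM in CD28KO tTreg and 5.62 ± 0.916 FPKM in WT tTreg (SD, n = 3 each, as in the values that follow). It averaged 0.661 ± 0.0677 FPKM in CD28KO pTreg and 2.64 ± 0.654 FPKM in WT pTreg. In Tconv it was 0.256, 0.0134 and 0.419 FPKM in CD28KO, against 1.37, 0.895 and 0.620 FPKM in WT. The genotypes did not overlap in any population, and the log2 differences were -1.02 ± 0.18 in tTreg, -1.11 ± 0.18 in pTreg and -0.67 ± 0.18 in Tconv. The CD28KO mean in Tconv was 23.8% of the WT mean, or 14.0% without CD28KO replicate 3. Of all 50-base stretches of the Apol9b transcripts, the length of the reads, 52.3% also occur in Apol9a, so the split of reads between the copies is uncertain.

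The start-site windows of both copies are shown because they carry the same letters. The annotated starts are offset, and the 278 bases that the first windows share after alignment were identical.
Apol9b, chr15:77728822-77729121, plus strand: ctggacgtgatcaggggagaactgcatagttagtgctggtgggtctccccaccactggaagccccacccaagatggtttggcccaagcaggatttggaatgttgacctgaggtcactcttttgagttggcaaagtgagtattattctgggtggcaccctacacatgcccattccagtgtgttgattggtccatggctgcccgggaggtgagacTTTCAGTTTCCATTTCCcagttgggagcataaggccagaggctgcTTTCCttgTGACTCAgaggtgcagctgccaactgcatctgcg
Apol9a, chr15:77411031-77411330, minus strand: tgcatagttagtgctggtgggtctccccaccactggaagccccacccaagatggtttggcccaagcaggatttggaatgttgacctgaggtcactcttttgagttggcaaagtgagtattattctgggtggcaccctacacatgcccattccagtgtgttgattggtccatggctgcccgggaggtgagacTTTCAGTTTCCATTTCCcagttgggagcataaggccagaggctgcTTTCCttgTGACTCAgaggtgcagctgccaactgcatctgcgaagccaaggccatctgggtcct
Capitals mark 2 overlapping ISRE matches, TTTCAGTTTC and TTTCCATTTC, at bases -37 to -28 and -31 to -22 of the Apol9b window, counted with the start base as 0. They also mark 3 NFAT cores, 2 of which overlap the ISRE matches, and the AP-1 match TGACTCA at bases 16 to 22. Of the 8 genes whose RefSeq windows were used, Apol9b was the only one in which an AP-1 or an ISRE match was found.

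Gjb2, Sccpdh, Plekhg3 and Ier5l had larger log2 differences between genotypes in the Treg subsets, where their WT levels were higher, than in Tconv. That order holds on the log2(FPKM + 1) scale and not on every other: with a pseudocount of 0.1 in place of 1, Sccpdh differed by -1.82 in tTreg and -1.92 in Tconv. Gjb2, a connexin of gap junctions, averaged 1.95 ± 0.184 FPKM in CD28KO tTreg and 5.32 ± 1.77 FPKM in WT tTreg, and 0.365 ± 0.113 FPKM in CD28KO pTreg and 1.63 ± 0.385 FPKM in WT pTreg. In Tconv, Gjb2 was 0.0433, 0.0193 and 0.343 FPKM in CD28KO, against 0.344, 0.291 and 0.258 FPKM in WT. There the genotypes overlapped through CD28KO replicate 3, the library with Treg transcripts, and without it the mean of the other CD28KO libraries was 10.5% of the WT mean. The log2 difference of Gjb2 was -1.06 ± 0.18 in tTreg, -0.94 ± 0.18 in pTreg and -0.20 ± 0.18 in Tconv, and -0.33 in Tconv without that library.

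Sccpdh, a saccharopine dehydrogenase-like oxidoreductase, averaged 0.759 ± 0.141 FPKM in CD28KO tTreg and 2.90 ± 0.124 FPKM in WT tTreg. It averaged 0.879 ± 0.0920 FPKM in CD28KO pTreg and 3.95 ± 1.25 FPKM in WT pTreg. In Tconv it was 0, 0.0759 and 0.355 FPKM in CD28KO, against 0.643, 0.866 and 0.501 FPKM in WT. The genotypes did not overlap, and the CD28KO mean was 26.1% of the WT mean in tTreg, 22.2% in pTreg and 21.4% in Tconv, or 5.66% in Tconv without CD28KO replicate 3. Its log2 differences were -1.15 ± 0.17 in tTreg, -1.37 ± 0.17 in pTreg and -0.55 ± 0.17 in Tconv.

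Plekhg3, a guanine nucleotide exchange factor, averaged 0.414 ± 0.0373 FPKM in CD28KO tTreg and 1.69 ± 0.256 FPKM in WT tTreg. It averaged 0.196 ± 0.0648 FPKM in CD28KO pTreg and 1.26 ± 0.418 FPKM in WT pTreg. In Tconv, where it averaged 0.178 ± 0.103 FPKM in CD28KO and 0.471 ± 0.157 FPKM in WT, the groups were close and did not overlap. The CD28KO mean in Tconv was 37.7% of the WT mean, or 25.1% without CD28KO replicate 3. The log2 differences were -0.92 ± 0.14 in tTreg, -0.90 ± 0.14 in pTreg and -0.32 ± 0.14 in Tconv.

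Ier5l, a relative of the immediate early gene Ier5, varied widely between the replicates of WT pTreg and of WT Tconv. It was 1.09, 0.955 and 1.68 FPKM in CD28KO tTreg, against 7.61, 4.95 and 6.25 FPKM in WT tTreg. In CD28KO pTreg it was 0.386, 0.422 and 0.719 FPKM, against 6.65, 2.79 and 1.83 FPKM in WT pTreg. In CD28KO Tconv it was 0.287, 0.163 and 0.554 FPKM, against 2.09, 0.556 and 1.08 FPKM in WT Tconv. WT pTreg replicate 1 and WT Tconv replicate 1 were the highest of their groups, and in Tconv the nearest libraries of the 2 genotypes almost touched. The log2 differences were -1.69 ± 0.30 in tTreg, -1.53 ± 0.30 in pTreg and -0.70 ± 0.30 in Tconv. Without these WT libraries the difference was -1.12 in pTreg and -0.44 in Tconv. The CD28KO mean in Tconv was 27.0% of the WT mean, or 18.1% without CD28KO replicate 3.

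Igsf3, an immunoglobulin superfamily membrane protein related to the EWI proteins, was the gene with higher levels without CD28. Its FPKM was 2.15, 2.29 and 1.98 in CD28KO tTreg, against 0.685, 0.809 and 0.855 in WT tTreg. In CD28KO pTreg it was 1.09, 0.911 and 1.22, against 0.255, 0.317 and 0.305 in WT pTreg. In CD28KO Tconv it was 0.304, 0.502 and 0.784, against 0.250, 0.440 and 0.406 in WT Tconv. The genotypes did not overlap in the Treg subsets, with CD28KO means 2.73-fold the WT mean in tTreg and 3.67-fold in pTreg, while the Tconv groups overlapped. The log2 difference was 0.82 ± 0.13 in tTreg, 0.68 ± 0.13 in pTreg and 0.15 ± 0.13 in Tconv, where it was 0.04 without CD28KO replicate 3. Its window is shown because it belongs to the gene that moved the other way, with 1 NFAT core and 1 NF-kB match in capitals. Igsf3 shares 284 of 8479 exonic bases with the antisense gene Gm42538.
Igsf3, chr3:101376875-101377174, plus strand: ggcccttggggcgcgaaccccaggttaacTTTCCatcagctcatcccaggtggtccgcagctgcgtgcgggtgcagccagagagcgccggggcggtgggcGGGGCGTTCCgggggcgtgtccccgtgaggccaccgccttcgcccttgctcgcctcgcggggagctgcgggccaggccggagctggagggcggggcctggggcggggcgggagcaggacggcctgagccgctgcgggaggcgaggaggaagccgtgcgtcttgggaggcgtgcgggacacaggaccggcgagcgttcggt

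Among populations of 1 genotype, the genes took different orders. These contrasts were not used to choose the genes, although the same libraries were. The fit gives a gene the same estimate of spread in all contrasts, so the choice by genotype can favour these calls too. Their counts beside the share of tested genes are therefore a description. Adjusted p-values are from limma with Benjamini-Hochberg adjustment over all tested genes. Sccpdh and Plekhg3 reached 1 FPKM only in WT Treg libraries, Igsf3 only in CD28KO Treg libraries, and Gjb2 only in Treg libraries. These genes passed the filter through groups where they were high, so their calls as higher in Treg are a description. Those calls were also made without the filter. The adjusted p-values of these genes and their part in the counts that follow are a description as well. Asb2 averaged 9.29 ± 0.723 FPKM in WT tTreg, 17.0 ± 3.65 FPKM in WT pTreg and 2.96 ± 0.825 FPKM in WT Tconv, with pTreg highest and no overlap between these groups. Cebpa averaged 5.95 ± 1.12 FPKM in WT tTreg, 1.40 ± 0.436 FPKM in WT pTreg and 2.19 ± 1.01 FPKM in WT Tconv, with tTreg highest and the other groups overlapping. The median difference of all tested genes was 0.19 in WT tTreg minus pTreg, -0.21 in WT pTreg minus Tconv and 0.14 in CD28KO pTreg minus Tconv, and under 0.1 in size in the other 3 contrasts. Over all 6 groups, the lowest mean of each gene other than Igsf3 was that of CD28KO Tconv.

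In CD28KO cells, 6 of the 10 genes passed between tTreg and pTreg, where 4.08% of tested genes did. Ttc39c (log2 difference 1.31 ± 0.17, adjusted p = 0.000183), Gjb2, Apol9b, Cebpa and Igsf3 were higher in tTreg. Asb2 was lower in tTreg, by -1.08 ± 0.26 (adjusted p = 0.0242). In WT cells, 5 of 10 passed between tTreg and pTreg (4.93% of tested genes), all higher in tTreg (4.44% of tested genes). The largest of these differences was that of Cebpa, 1.54 ± 0.20 (adjusted p = 0.000243), followed by Ttc39c, Gjb2, Apol9b and Igsf3. Asb2 differed by -0.79 ± 0.26 in WT, with an adjusted p of 0.12 that became 0.0369 with the replicate number as a block. The same 5 genes thus passed as higher in tTreg in both genotypes.

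Between tTreg and Tconv, 7 of 10 genes passed in CD28KO cells (12.1% of tested genes), all higher in tTreg (9.63%). Ttc39c was again the largest, with 1.98 ± 0.17 (adjusted p = 3.76e-06), and Apol9b, Gjb2, Igsf3, Asb2, Cebpa and Sccpdh followed. In WT cells 8 of 10 passed (12.6%), all higher in tTreg (8.33%): Gjb2, Apol9b, Ier5l, Ttc39c, Asb2, Sccpdh, Cebpa and Plekhg3. Gjb2 differed by 2.25 ± 0.18 there, as its mean was 17.9-fold higher in tTreg. Igsf3 differed by 1.05 ± 0.13 in CD28KO cells and by 0.39 ± 0.13 in WT cells (adjusted p = 0.055 in WT, and 0.0321 with the replicate block). Whether the population differences themselves differ between genotypes was not tested, because the genotype contrast chose the genes.

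Between pTreg and Tconv, 4 of 10 genes passed in CD28KO cells (5.85% of tested genes) and 5 of 10 in WT cells (4.49%). All were higher in pTreg, a direction called for 4.8% of tested genes in CD28KO and 2.05% in WT. Asb2 had the largest difference in both, 2.09 ± 0.26 in CD28KO (adjusted p = 0.000113) and 2.19 ± 0.26 in WT (adjusted p = 8.3e-05). Sccpdh also passed in both genotypes, with 0.73 ± 0.17 in CD28KO and 1.54 ± 0.17 in WT. The other genes that passed were Ttc39c and Igsf3 in CD28KO, and Gjb2, Apol9b and Plekhg3 in WT. Cebpa differed by 0.00 ± 0.20 in CD28KO (adjusted p = 1) and by -0.38 ± 0.20 in WT (adjusted p = 0.364). For Baiap3, none of the 6 population contrasts passed in this fit. It passed as higher in CD28KO tTreg than in Tconv without WT Tconv replicate 1 (adjusted p = 0.0254), without that library, CD28KO Tconv replicate 3 and WT pTreg replicate 1 together (0.0188), with a pseudocount of 0.1 (0.0159) and with only the compared groups (0.0137). It passed as lower in WT tTreg than in Tconv without WT Tconv replicate 3 (adjusted p = 0.0478) and with quantile normalization (0.0414).

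Of the 35 population calls above, 23 kept an adjusted p under 0.05 with each of the 18 libraries left out in turn. Igsf3 was the least stable: 15 of the 18 refits lost its calls between CD28KO pTreg and Tconv (highest adjusted p = 0.273) and between WT tTreg and pTreg (0.192). In CD28KO tTreg against pTreg, the call was lost for Asb2 without pTreg replicate 1 or 3 or tTreg replicate 1 or 2 (0.0668 to 0.157). There it was lost for Cebpa without replicate 1 of either group (0.0754 and 0.0817), and for Igsf3 without replicate 2 of either (0.0552 and 0.0543). In CD28KO tTreg against Tconv, Asb2 lost it without Tconv replicate 1 or 2 or tTreg replicate 2 or 3 (0.0545 to 0.0958), and Sccpdh without Tconv replicate 1 or 2 or tTreg replicate 2 (0.0798 to 0.113). In CD28KO pTreg against Tconv, Sccpdh lost it without pTreg replicate 2 or Tconv replicate 1 or 2 (0.0677 to 0.101), and Ttc39c without pTreg replicate 1 or 3 or Tconv replicate 1 or 2 (0.0588 to 0.172). In WT, Apol9b lost it against pTreg without tTreg replicate 3 (0.0586) and in pTreg against Tconv without Tconv replicate 3 (0.0562). Plekhg3 lost it in WT pTreg against Tconv without pTreg replicate 2 or Tconv replicate 2 or 3 (0.0651 to 0.0902). Leaving out 1 library also added calls: for Ier5l in CD28KO tTreg against Tconv and in WT tTreg against pTreg without WT pTreg replicate 1 (0.0382 and 0.0204), for Ier5l in WT pTreg against Tconv without WT pTreg replicate 3 or WT Tconv replicate 1 (0.0219 and 0.0329), and for Igsf3 in WT tTreg against Tconv without CD28KO Tconv replicate 1 or 3 or WT pTreg replicate 1 (0.0331 to 0.0447). Without both CD28KO libraries that carried transcripts of another population, tTreg replicate 3 and Tconv replicate 3, Ttc39c was no longer called in CD28KO pTreg against Tconv (0.0548), and Igsf3 was called in WT tTreg against Tconv (0.0481). Without CD28KO Tconv replicate 3, WT pTreg replicate 1 and WT Tconv replicate 1 together, calls were added for Ier5l in CD28KO tTreg against Tconv (0.00979), in WT tTreg against pTreg (0.00492) and in WT pTreg against Tconv (0.0343), for Apol9b in CD28KO pTreg against Tconv (0.0259), and for Asb2 and Sccpdh in WT tTreg against pTreg (0.0141 and 0.0418).

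Other settings changed calls in both directions. With quantile normalization, Cebpa was no longer called in CD28KO tTreg against pTreg or Tconv, Sccpdh in CD28KO tTreg against Tconv, Ttc39c and Igsf3 in CD28KO pTreg against Tconv, and Igsf3 in WT tTreg against pTreg. It added Asb2 (adjusted p = 0.00837) and Sccpdh (0.0130), both lower in WT tTreg than in pTreg. With a pseudocount of 0.1, Asb2, Apol9b and Igsf3 were no longer called in CD28KO tTreg against pTreg, and Igsf3 in CD28KO pTreg against Tconv. The same setting ended the calls of Apol9b in WT tTreg against pTreg and of Apol9b and Plekhg3 in WT pTreg against Tconv, and added that of Ier5l in CD28KO tTreg against Tconv (adjusted p = 0.0303). With only the compared groups in the fit, the calls of Apol9b, Gjb2 and Igsf3 in WT tTreg against pTreg, of Apol9b and Plekhg3 in WT pTreg against Tconv and of Igsf3 in CD28KO pTreg against Tconv were lost, and Ier5l was called in CD28KO tTreg against Tconv (0.0256). Without the filter, Ttc39c was not called in CD28KO pTreg against Tconv (0.0625) and Igsf3 was called in WT tTreg against Tconv (0.0295). Without the variance trend, Igsf3 was not called in CD28KO pTreg against Tconv (0.0740) or in WT tTreg against pTreg (0.0724).

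**Figure D3:**
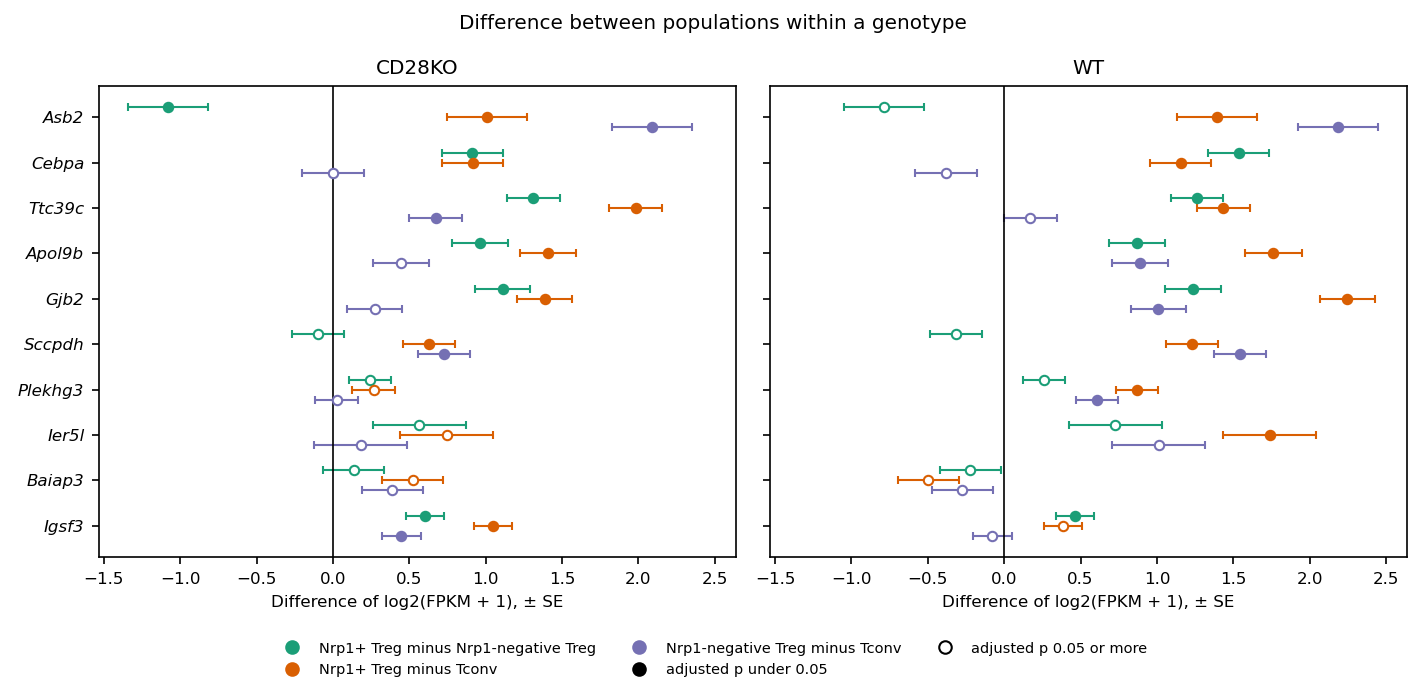
Differences between populations of log2(FPKM + 1) with their SE, for CD28KO (left) and WT (right); filled points have a limma adjusted p under 0.05. Asb2 is the gene with a filled point on the negative side, in CD28KO tTreg minus pTreg.

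Few relatives of the 10 genes, which are listed paralogs, partners and pathway genes, passed the test between genotypes, and those that came nearest were apolipoprotein L and interferon-response genes. Of 108 relatives in 11 lists, 104 were listed and 46 tested. In tTreg, 1 of 46 passed the limma adjusted p, Apol9a, where 0.204% of all tested genes did. Apol9a averaged 0.549 ± 0.0551 FPKM in CD28KO tTreg and 2.0 ± 0.375 FPKM in WT tTreg, a log2 difference of -0.95 ± 0.13 (adjusted p = 0.00395). Of the 50-base stretches of the Apol9a transcripts, 16.5% also occur in Apol9b, so part of its reads cannot be told apart from those of Apol9b. In pTreg 0 of 46 relatives passed by limma, where 0.204% of all tested genes did, and the nearest were Apol9a, Apol7b and Apol7e.

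In Tconv 0 of 46 relatives passed by limma, where 0.791% of all tested genes did. With the replicate number as a block 5 passed, among them Apol7b, Apol7e and Apol9a. Apol7b averaged 7.63 FPKM in CD28KO Tconv and 15.0 FPKM in WT Tconv, a difference of -0.90 ± 0.20 (adjusted p = 0.0504). The counts depended on single WT libraries: without WT pTreg replicate 1, 3 relatives passed in pTreg and 7 in Tconv, and without WT pTreg replicate 2, 1 passed in Tconv. The share of all tested genes that passed in these settings is not given here, so the counts show only their dependence on the setting. The median of the 13 tested interferon-response genes was -0.11 in tTreg, 0.01 in pTreg and -0.55 in Tconv, beside -0.05, 0.19 and -0.16 over all tested genes.

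The partners and paralogs of the other genes gave no call. Cul5, the scaffold of the Asb2 ligase, averaged 10.1 ± 1.38 FPKM in CD28KO tTreg and 10.2 ± 2.25 FPKM in WT tTreg. Flna, a filamin, averaged 119 ± 14.7 FPKM in CD28KO tTreg and 102 ± 17.0 FPKM in WT tTreg. These RNA levels say nothing of filamin protein, which is what the ligase acts on. Cebpb, the most abundant C/EBP relative named, averaged 21.5 ± 1.60 FPKM in CD28KO tTreg and 26.5 ± 14.7 FPKM in WT tTreg, and Cebpd was at most 0.311 FPKM in any library. Ier5 averaged 114 ± 13.1 FPKM in CD28KO tTreg and 116 ± 12.8 FPKM in WT tTreg. Unc13d, a Munc13 relative of cytotoxic granule release, averaged 52.8 ± 1.88 FPKM in CD28KO tTreg and 57.7 ± 7.76 FPKM in WT tTreg. Igsf8, an EWI protein gene, averaged 10.2 ± 0.249 FPKM in CD28KO tTreg and 10.9 ± 1.47 FPKM in WT tTreg. Outside tTreg some differed more, without a call. In Tconv the log2 difference was -0.43 ± 0.45 for Cebpb, -0.40 ± 0.20 for Unc13d and -0.35 ± 0.23 for Ier5. It was -0.18 ± 0.16 for Igsf8, -0.14 ± 0.27 for Flna and 0.04 ± 0.32 for Cul5 there, beside -0.16 over all tested genes. In pTreg Flna differed by 0.53 ± 0.27 and Igsf8 by 0.34 ± 0.16, beside 0.19 over all tested genes.

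**Figure D4:**
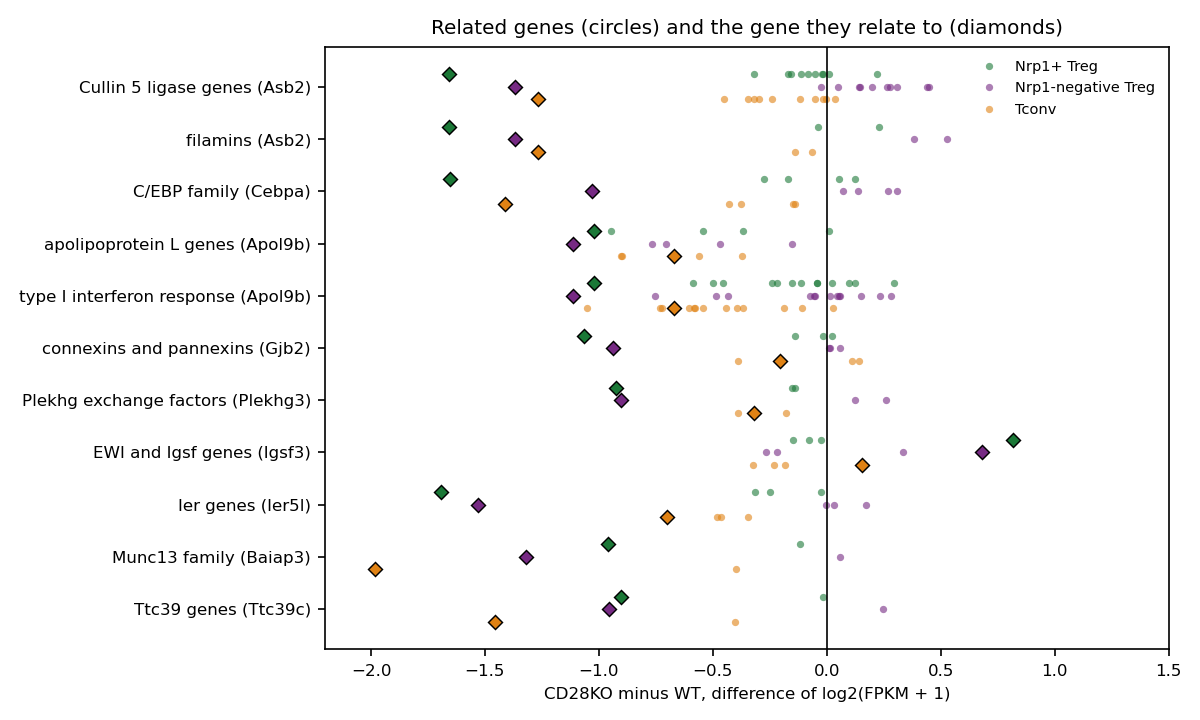
Difference CD28KO minus WT of log2(FPKM + 1) for tested relatives (circles) and for the gene each list relates to (diamonds), by population. Most diamonds lie left of the circles of their row, Igsf3 lies right of them, and in Tconv the apolipoprotein L circles lie on both sides of their diamond.

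Across the 18 libraries, the 9 genes other than Igsf3 varied together to different degrees. Pearson's r of log2(FPKM + 1) over their 36 pairs ran from 0.34 to 0.95 with a median of 0.78, which the shared genotype and population differences set in part. After the group means were taken out, the median was 0.36 and 31 of 36 pairs stayed above 0. Pairs of other tested genes were not computed as a reference, so nothing is read from these values. CD28KO Tconv replicate 3, the highest of its group for 9 of the 10 genes, was kept in them. The 9 pairs with Igsf3 ran from -0.50 to 0.27. Asb2 and Cebpa correlated at 0.46. Genes most like Asb2 and Cebpa were ranked among tested genes outside the 10, with microRNA, snoRNA, pseudogene, Gm, Rik and similar clone symbols left out. Those most like Asb2 over the 18 libraries were Gp49a (r = 0.95), Glrx (0.94) and Lilrb4 (0.93). Gp49a and Lilrb4 are closely similar receptor genes, whose reads may not be separable, and Glrx encodes glutaredoxin. For Cebpa they were Batf (0.94), an AP-1 family transcription factor, Apol9a (0.92) and Chaf1a (0.92), a subunit of chromatin assembly factor. Gp49a averaged 0.965 ± 0.367 FPKM in CD28KO tTreg and 5.09 ± 0.748 FPKM in WT tTreg. Batf averaged 41.6 ± 2.69 FPKM in CD28KO tTreg and 71.2 ± 9.88 FPKM in WT tTreg.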

How the data were processed

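The authors deposited FPKM values, 1 per gene and library, inferred from the tool and the fractional values because the files name no unit. Per the submitters' processing notes, Trimmomatic 1, TopHat2 2.0.11, Cufflinks and GRCm38 were used. Per the labels, total RNA was extracted with TriReagent, libraries were made with NEBNext Ultra and reads were 50 nt. The annotation and the strand setting are not given in the sources used here. Depth is unknown: low values stepped by whole reads in 4 of 17 libraries compared, too few to recover counts.

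Values were analysed as log2(FPKM + 1) with limma 3.58.1 (R 4.3.3), over the 12265 genes that reached an FPKM of 1 in 3 or more libraries. The model held a mean for each of the 6 groups, with a variance trend and 12 residual degrees of freedom. Tests were two-sided with Benjamini-Hochberg adjustment over all tested genes. The code was tested on simulated data. Fold changes on this scale understate those of low genes. The genes, the relatives and the marker lists were chosen with earlier results of these data known. All 10 genes were named, with relatives called between genotypes, 8 relatives whatever their p, and, after the exclusions given above, the 3 genes most correlated with Asb2 and with Cebpa. Apol7b and Apol7e were named after their values were seen.

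Alternatives were a pseudocount of 0.1, no filter, quantile normalization, no trend, only the compared groups, a replicate block, and libraries left out. Replicate numbers come from the titles. Same-numbered libraries deviated together (every correlation over 0.1) in 6 of 9 comparisons, which were taken as paired. Differently numbered libraries were not correlated as a reference, so this cut-off cannot show that the numbers mark pairs. The exceptions were CD28KO against WT in tTreg and in pTreg, and WT pTreg against Tconv. The main fit did not use this pairing, which entered only through the replicate block. RefSeq start-site windows were used for 8 of the 10 genes, not for Plekhg3 or Ttc39c, and gene positions are from the GENCODE annotation of GRCm38.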

Additional observations from a re-analysis of the deposited data

How the results depend on the processing

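The signs of the 30 genotype differences were kept for all except Igsf3 in Tconv, which was -0.02 without CD28KO Tconv replicate 3, WT pTreg replicate 1 and WT Tconv replicate 1 together. Their sizes depended on the pseudocount: at 0.1 in place of 1, which widens differences of low genes, 28 of 30 moved by more than the replicate SD and 19 grew over 1.5 times, such as Cebpa in Tconv, -3.09. Counts of genes without overlap in tTreg, pTreg and Tconv were 10, 10 and 8 to 9 with 1 library left out. Counts of the 10 genes called between populations changed as follows. CD28KO tTreg against pTreg gave 3 with a pseudocount of 0.1 and 4 to 6 with 1 library left out, and against Tconv 5 to 8. CD28KO pTreg against Tconv gave 2 with quantile normalization and 1 to 4 with 1 library left out: 2 without any CD28KO pTreg replicate and 1 without CD28KO Tconv replicate 1 or 2. WT tTreg against pTreg gave 2 with only the compared groups and 3 to 5 with 1 library left out (3 without WT tTreg replicate 3), and against Tconv 8 to 9. Without CD28KO Tconv replicate 3, WT pTreg replicate 1 and WT Tconv replicate 1, called the 3 libraries below, WT tTreg against pTreg gave 8. WT pTreg against Tconv gave 3 with only the compared groups, 3 with a pseudocount of 0.1 and 3 to 6 with 1 library left out (3 without WT Tconv replicate 3). Relatives called in tTreg were 0 with only the compared groups or a pseudocount of 0.1, and 1 whichever library was left out. In pTreg they were 3 with quantile normalization, 5 without the 3 libraries and 0 to 3 with 1 left out. In Tconv they were 1 with a pseudocount of 0.1, without the filter and without the trend, 3 with quantile normalization, 5 with the replicate block, 5 without the 3 libraries and 0 to 7 with 1 left out. The share of all tested genes called in each of these settings is not given here, so the counts show only their dependence on the setting. The cause was not tested.

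The replicate block changed 2 calls of the 10 genes in paired comparisons, both given above, and gave 6, 7 and 4 calls in CD28KO and 6, 9 and 6 in WT; the added call in the unpaired WT pTreg against Tconv was Ier5l (adjusted p = 0.0249). Signs of differences near 0 turned. With quantile normalization, Plekhg3 was -0.017 in CD28KO tTreg against pTreg, -0.15 in tTreg against Tconv and -0.13 in pTreg against Tconv, and in the last Cebpa was -0.14 and Ier5l -0.026. There Cebpa was also -0.049 with a pseudocount of 0.1 and -0.076 to 0.083 with 1 library left out, and Plekhg3 was -0.019 to 0.095. Baiap3 in WT pTreg against Tconv was 0.13 without the 3 libraries. Since depth is unknown, values under about 0.3 FPKM cannot be given a counting error.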
